A study of Mus musculus with 6 samples.

Results

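The stretch of mouse chromosome 8 from 85 to 95 Mb (mm9 coordinates, the build named in the array file headers) was followed on 6 one-colour arrays of testis RNA. Its members were the 210 probes, other than control spots, whose lower coordinate on chromosome 8 was at least 85 Mb and below 95 Mb, of 41174 probes on the array. They carried 134 of the 27343 gene names. The edges of the stretch were chosen with the differences on these same arrays known, so every count and difference between genotypes given here is a description, and no gene is given a p-value of its own. The arrays came from 3 male mice with a knockout of the serine protease gene Prss37 and 3 wild-type males, all C57BL/6, 6 to 8 weeks old and labelled as separate mice, with 1 array per mouse. How the allele was made, the cells in which it is lost and whether the mice were littermates are not given in the sources used here. The RNA is of whole testis, in which fewer cells of a type and less RNA per cell cannot be told apart. The knockout samples are called Prss37 knockouts in their titles and source names but Prss55 knockouts in another text field, and the titles were followed.

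A stretch of chromosome is not a pathway, and its genes do unrelated work. Among those in these 10 Mb are lectin chaperones of the endoplasmic reticulum, of which calmegin (Clgn) is made in male germ cells and is needed for sperm to fertilise. The stretch also holds the catalytic subunit of protein kinase A that drives sperm motility (Prkaca), a central element protein of the synaptonemal complex that joins chromosomes in meiosis (Syce2), the red cell transcription factor Klf1, and the gene of the RNA demethylase Fto with its neighbours. An array probe reads only transcripts that contain its bases, so 2 probes of a gene can read different transcripts of it.

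The first 30 bases of the 60-base probes, in the letters and order of the deposited files, are printed for the genes on which the description turns. They show the single probes behind Klf1, Misp3 and Gipc1, and the probe pairs of 4 genes whose members gave unequal readings. All letters are lower case and none is marked. The Klf1 probe lies at chr8:87428881-87428940 on the plus strand, the Misp3 probe at chr8:86534157-86534216 on the minus strand and the Gipc1 probe at chr8:86188392-86188451 on the plus strand. Those of Tnpo2 and Rbl2 lie on the plus strand and those of Scoc and Zfp423 on the minus strand. Probe a of a gene is the brighter one, which stands for the gene in the counts. The coordinate range of Scoc probe a and of Zfp423 probe b is longer than the probe. No annotation of this build was used here, so whether a probe lies in an exon, an intron or an untranslated region is not given.
Klf1: aaggaccgtatcccaaaagatgagccatta
Misp3: aaccacctttctccataaaattctctagtc
Gipc1: cacctacctcaatagagtactcgcatggga
Tnpo2 probe a, chr8:87580660-87580719: atgattatttccagattagctgtggaaatg
Tnpo2 probe b, chr8:87578927-87578986: acaacgaggagaaggattctgccttccgag
Scoc probe a, chr8:85961899-85966323: aagaccattctttaaagagttggcgttcga
Scoc probe b, chr8:85959099-85959158: gctaaaaactccctattgcataaaatagtt
Zfp423 probe a, chr8:90186099-90186158: agctagtgtgcttttagagttttcgccgca
Zfp423 probe b, chr8:90297522-90304128: gaaaggtgcccagacgtcaccagtgcccag
Rbl2 probe a, chr8:93646362-93646421: gaaactgtcttcacatgaactggttagcag
Rbl2 probe b, chr8:93647120-93647179: atggtgtgaactttggtaggtacaagcctt

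Levels are given as scaled signals, the background-subtracted spot intensity brought to a common 75th percentile of 1617 on every array. They compare arrays for 1 probe and not 1 probe with another. The probe of the targeted gene Prss37 (chr6:40464853-40464912) read 67592, 73824 and 71562 in knockout replicates 1 to 3 and 116135, 107860 and 124390 in wild-type replicates 1 to 3. The groups did not overlap for Prss37, and the wild-type replicate 3 array lay with the wild types. The log2 difference was -0.71 (SE 0.07) on 6 arrays and -0.66 (SE 0.06) without wild-type replicate 3. The probe was still bright in the knockouts, and whether it lies in the deleted part is not given in the sources used here. Between 69.2% and 71.4% of spots were well above background on an array, 86 to 159 spots were flagged as outliers and 0 were saturated. Replicates 1 and 2 of each genotype lay on 1 slide and replicate 3 of each on another. Germ cell markers fixed as lists were tested for all 5 spermatocyte, 5 round spermatid and 5 elongating spermatid genes, of which 0 were called between genotypes. The summed signal of the spermatogonial list was 21327 to 22287 in the knockouts and 23358 to 24343 in the wild types, which did not overlap, and that of the macrophage list was 20612 to 26016 and 16233 to 20922. The Sertoli list (113386 to 117246 and 102728 to 111724) and the fat list (9614 to 9757 and 9860 to 11612) did not overlap either. A sum weighs the brightest probes most and does not give a common change of a list. The median log2 difference on 6 arrays was -0.003 for the spermatogonial list and 0.23 for the macrophage list. It was 0.09 for the Sertoli list and -0.26 for the fat list. Of these lists 1 fat gene was called, lower, where 1.25% of all tested genes were called lower. The part of these cells in the results for the interval was not tested.

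A gene of the interval could be tested where its brightest probe was well above background on every array of at least 1 genotype. This left 170 of the 210 probes and 109 of the 134 genes. The other 40 probes and 25 genes were too dim, among them the fat cell uncoupling protein Ucp1, the innate immune sensor Nod2, the homeobox gene Irx3, the odorant receptor Olfr370 and the prostaglandin receptor Ptger1. Of all 210 probes, 166 were well above background on all 6 arrays and 32 on 0 arrays. The tested genes passed this filter through either genotype, so a gene present in 1 genotype alone could enter only through a difference.

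With all 6 arrays, 3 of the 109 tested genes were called between the genotypes (limma, adjusted p under 0.05 over all genes), 1 higher and 2 lower in the knockout. This is 2.75% of the interval against 2.46% of all 18976 tested genes, 1.21% higher and 1.25% lower. Without wild-type replicate 3 the same rule called 36 of 110 genes, 22 higher and 14 lower, or 32.7% of the interval. Over all genes that fit called 2.26%, 1.18% higher and 1.08% lower. It keeps a knockout array but no wild-type array of the slide of replicates 3, so genotype and slide are partly mixed in it. Of the 3 genes called on 6 arrays, 2 were also called without wild-type replicate 3. Without any 1 of the knockout arrays (replicates 1, 2 and 3), or without wild-type replicate 1, the interval had 0 calls, where 0.257%, 0.0105%, 0.0729% and 0.0312% of all genes were called. Without wild-type replicate 2 it had 1 higher and 3 lower, where 4.09% of all genes were called. On 6 arrays 32 of the 109 genes (29.4%) had an unadjusted p under 0.05, against 23.9% of all tested genes. The levels of the genotypes did not overlap in 36 of 109 genes on 6 arrays (33% against 31.6% of all genes) and in 83 of 110 without wild-type replicate 3 (75.5% against 46.8%).

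Differences within the interval were larger with wild-type replicate 3 left out. The median absolute log2 difference between genotypes was 0.16 over the interval and 0.09 over all tested genes on 6 arrays. Without wild-type replicate 3 these were 0.25 and 0.10. The median signed differences lay close to 0, at 0.03 on 6 arrays and 0.04 without that array. Of the 36 genes called without wild-type replicate 3, 23 differed by at least 0.5 on the log2 scale, 15 higher and 8 lower, and 7 by at least 1, 3 higher and 4 lower. The 36, the 23 and the 7 include Ptger1, whose fitted difference of -1.89 rests on knockout readings not well above background. Taken as a bound, its level was at least 1.99-fold lower in the knockout, just short of a log2 difference of 1.

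Array by array, a tested gene was counted where its level lay nearer to the mean of the other genotype than to the mean of the other arrays of its own. Within the interval this held for 82 of 109 genes on the array of wild-type replicate 3 (75.2%), against 46.1% of all tested genes on that array. On the remaining 5 arrays it held for 16 to 27 of the 109 genes (14.7% to 24.8%), against 32% to 46% of all tested genes, the upper value on wild-type replicate 2. On the rest of chromosome 8 the share for wild-type replicate 3 was 50.2%. Knockout replicate 3, on the same slide as that array, was nearer to the wild types in 22 of 109 genes. The plot of levels in genomic order shows the wild-type replicate 3 points among the knockout points at many of the genes where the other arrays separate. Because this array also entered the wild-type mean against which the knockouts were set, the counts and the differences of named genes are given with it and, second, without it, and what sets it apart was not tested.

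**Figure D1:**
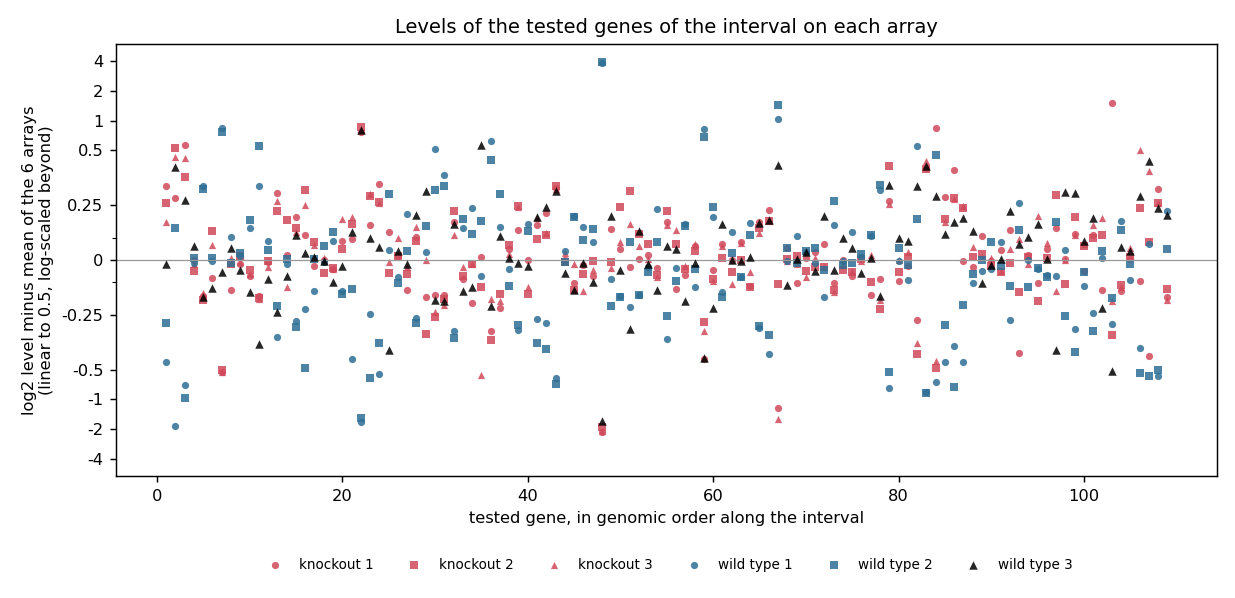
Each column of points is 1 of the 109 tested genes in order along the interval, and the y axis is its log2 level on each array minus the mean of the 6 arrays (linear to 0.5, log-scaled beyond). Red points are the 3 knockout arrays, blue points wild-type replicates 1 and 2, and black triangles wild-type replicate 3, which was nearer to the knockout mean in 82 genes.

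Among the 36 genes called without it, the level of wild-type replicate 3 could be placed on the way from the mean of wild-type replicates 1 and 2 (0%) to the knockout mean (100%). The median position was 96.6%. It was between 75% and 125% in 25 genes, between 25% and 75% in 7, beyond 125% in 3 and below 25% in 1. In 12 of the 36 genes the array lay inside the range of the knockout arrays. These 36 genes were chosen with the array left out, but by a contrast that used the other wild types, so the positions are a description. The single gene below 25% was Gipc1, at 7.91%. The 7 genes between were Zfp330, Scoc, Ptger1, Lyl1, Nacc1, Fto and a transcript listed as ENSMUST00000071067. Ptger1 was not well above background on the knockout arrays or on wild-type replicate 3, so its position is a place among background readings.

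The largest difference of the interval was that of Klf1, a zinc finger factor that switches on globin and other red cell genes. Its scaled signal was 59.8, 71.4 and 61.0 in the knockouts and 3818, 4049 and 83.7 in wild-type replicates 1 to 3. Wild-type replicates 1 and 2 were thus far above the remaining 4 arrays, all 4 of which were still well above background. The log2 difference was -4.09 (SE 1.51) on 6 arrays, where it was not called, and -5.94 (SE 0.09), a level 61.6-fold lower in the knockout, without wild-type replicate 3. The haemoglobin genes did not follow this order. The Hba-a1 signal was 4518, 3468 and 4007 in the knockouts and 7788, 2907 and 4671 in the wild types, so wild-type replicate 2, with the highest Klf1 signal, had the lowest Hba-a1 signal. The summed signal of the erythroid list was 18837 to 23989 in the knockouts and 13948 to 34825 in the wild types.

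Of the blood genes listed for the interval, Klf1 was joined by Lyl1, a basic helix-loop-helix factor of early blood cells, and by Prdx2, a peroxidase abundant in red cells. Lyl1 read 967, 1044 and 1041 in the knockouts and 706, 716 and 873 in the wild types. All 3 knockouts were above all 3 wild types, and wild-type replicate 3 lay between. The Lyl1 difference was 0.42 (SE 0.09) on 6 arrays, not called, and 0.52 (SE 0.05) without wild-type replicate 3, called. Prdx2 differed by 0.07 (SE 0.04) and 0.08 (SE 0.04) and was not called in either fit. Outside the interval 8 genes of the same list were tested, of which Alas2, the haem synthesis enzyme of red cells, was called higher (0.53) and Ank1, the red cell ankyrin, lower (-0.88) on 6 arrays. Without wild-type replicate 3 Ank1 was still called (-0.92) and Alas2 was not (0.54). Over all genes 1.21% were called higher and 1.25% lower on 6 arrays, and 1.18% and 1.08% without wild-type replicate 3.

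Misp3 was the counterpart of Klf1 in the other direction. It read 10086, 10817 and 10340 in the knockouts, 1822 and 2019 in wild-type replicates 1 and 2, and 10382 in wild-type replicate 3. The last value lay inside the knockout range. The log2 difference was 1.63 (SE 0.66) on 6 arrays and 2.44 (SE 0.06), or 5.43-fold, without that array. The locus Gm2716 showed the same arrangement, with 1943, 1935 and 1985 in the knockouts and 811, 794 and 1955 in the wild types. Its difference was 0.86 (SE 0.35) on 6 arrays and 1.28 (SE 0.04) without wild-type replicate 3.

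**Figure D2:**
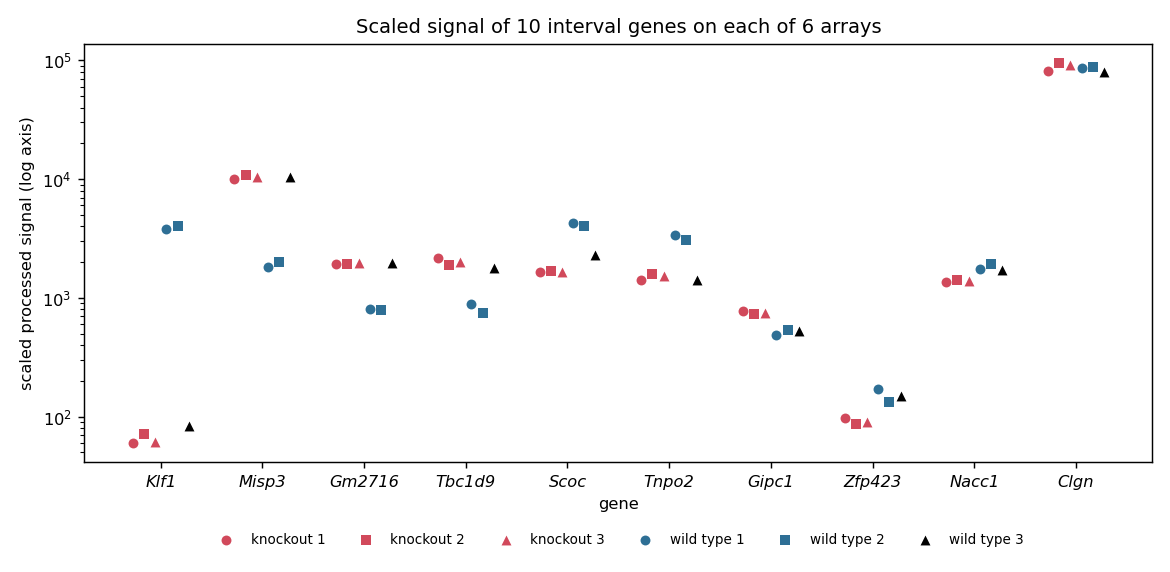
Scaled signal (log axis) of 10 genes of the interval on each of the 6 arrays, red for knockout, blue for wild-type replicates 1 and 2 and black for wild-type replicate 3. Each gene is shown on its brightest probe. For Klf1, Misp3, Gm2716 and Tnpo2 the black point lies with the knockouts, for Gipc1 and this probe of Zfp423 with the wild types, and Clgn shows no separation.

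The genes of vesicle and centrosome traffic in the interval were mostly higher in the knockout once wild-type replicate 3 was left out. On 6 arrays 1 of the 5 tested was called higher and 0 lower, and without that array 4 were called higher and 0 lower, with a median difference of 0.49. In that fit 22 of the interval's 110 genes and 1.18% of all genes were called higher. Elsewhere in the genome 5 further genes of this list were tested and 0 were called in either fit. Gipc1, an adaptor that ties membrane cargo to myosin VI, was 1 of the 3 genes called on 6 arrays. It read 773, 732 and 753 in the knockouts and 491, 541 and 531 in the wild types, with no overlap and with wild-type replicate 3 among the wild types. Its level rose by 0.53 (SE 0.05) on 6 arrays and by 0.55 (SE 0.06) without wild-type replicate 3.

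Tbc1d9, which carries the domain of Rab GTPase activators, read 2161, 1900 and 2019 in the knockouts and 895, 744 and 1771 in the wild types. Its difference was 0.94 (SE 0.31) on 6 arrays and 1.31 (SE 0.10) without wild-type replicate 3. The second Tbc1d9 probe, at a lower signal, gave 1.52 and 1.89. Hook2, a linker between centrosome and microtubules, had differences of 0.37 (SE 0.11) and 0.49 (SE 0.05). Vps35, the core of the retromer that returns receptors from endosomes, had 0.29 (SE 0.13) and 0.45 (SE 0.04). Get3, which delivers tail-anchored proteins to the endoplasmic reticulum, had -0.09 (SE 0.10) and -0.20 (SE 0.04) and was not called.

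Genes of chromatin and the nucleus split in both directions, as did the calls of the whole interval without wild-type replicate 3. Of 8 tested in the interval, 0 were called higher and 1 lower on 6 arrays, where 1.21% and 1.25% of all genes were. Without wild-type replicate 3 the counts were 2 and 2. In that fit 22 of the interval's 110 genes were called higher and 14 lower, against 1.18% and 1.08% of all genes. Nacc1, a nuclear BTB domain regulator of transcription, fell by 0.37 (SE 0.06) on 6 arrays and by 0.41 (SE 0.06) without wild-type replicate 3. Its signal was 1358, 1420 and 1387 in the knockouts and 1756, 1947 and 1703 in the wild types. The groups did not overlap on this probe and wild-type replicate 3 was the wild type nearest to the knockouts. The other tested Nacc1 probe read 878, 852 and 881 in the knockouts and 1092, 1010 and 828 in the wild types. There the groups overlapped, wild-type replicate 3 was the lowest array, and the differences were -0.16 (SE 0.10) and -0.27 (SE 0.05). With the mean of its probes the Nacc1 difference was -0.27, and neither there nor with the slide as a block was it called.

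The nuclear import receptor gene Tnpo2 read 1406, 1578 and 1535 in the knockouts and 3406, 3075 and 1411 in the wild types. Its difference was -0.71 (SE 0.33) on 6 arrays and -1.10 (SE 0.08) without wild-type replicate 3. The other Tnpo2 probe gave -0.61 (SE 0.15) and -0.78 (SE 0.04), with the wild-type replicate 3 signal of 338 between knockouts of 278 to 286 and wild types of 481 and 488. Orc6, of the origin recognition complex, had 0.39 (SE 0.16) and 0.58 (SE 0.05). The histone chaperone gene Asf1b differed by -0.03 (SE 0.04) and -0.05 (SE 0.05) and the bromodomain gene Brd7 by -0.04 (SE 0.05) and -0.05 (SE 0.06), neither called in either fit.

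The immediate early genes Ier2 and Junb were both read lower on average in the knockouts. Ier2 read 286, 279 and 317 in the knockouts and 550, 492 and 310 in the wild types. The difference was -0.58 (SE 0.21) on 6 arrays, not called, and -0.83 (SE 0.08), called, without wild-type replicate 3. Junb, a subunit of the AP-1 transcription factor, had -0.12 (SE 0.09) and -0.22 (SE 0.06) and was called in neither. The 11 tested members of this list outside the interval had a median of -0.18 on 6 arrays and -0.23 without wild-type replicate 3, with 0 called in each fit.

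Scoc encodes a short coiled-coil protein of the Golgi. Its brighter probe read 1659, 1675 and 1655 in the knockouts and 4298, 4042 and 2299 in the wild types. All wild types lay above the knockouts, with wild-type replicate 3 at 64.8% of the way. The difference was -1.04 (SE 0.24) on 6 arrays, not called, and -1.33 (SE 0.04), called, without that array. The other Scoc probe read 342 to 371 in the knockouts and 338 to 353 in the wild types, with differences of 0.04 (SE 0.05) and 0.06 (SE 0.05).

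Several transcription factors of development lie in the stretch. Of 6 listed, Irx3 was too dim and 5 were tested. On 6 arrays 1 was called lower, against 1.25% of all genes, with 0 called without wild-type replicate 3. That gene was Zfp423, a zinc finger factor of fat cell and cerebellar development, which read 97.3, 87.3 and 90.4 in the knockouts and 173, 134 and 149 in the wild types. Its level fell by 0.72 (SE 0.10) on 6 arrays, and the difference of -0.73 (SE 0.12) without wild-type replicate 3 was not called. With normexp background correction the Zfp423 difference was -0.40 and with the mean of its probes -1.20, and it was called neither in these nor with the slide as a block. Irx5, an Iroquois homeobox gene, read 250, 256 and 248 in the knockouts and 328, 291 and 324 in the wild types. The groups did not overlap, and the differences of -0.32 (SE 0.06) and -0.30 (SE 0.06) were not called. Nfix had -0.18 (SE 0.07) and -0.24 (SE 0.06), called in neither fit. Sall1 had -0.06 (SE 0.12) and 0.01 (SE 0.13), and Tox3 0.20 (SE 0.18) and 0.05 (SE 0.15), also not called.

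Fto, which removes methyl groups from adenosines in RNA, and the genes around it were 5 tested genes. Of these 0 were called on 6 arrays, and 2 higher and 1 lower without wild-type replicate 3. In the second fit 22 of the interval's 110 genes were called higher and 14 lower, against 1.18% and 1.08% of all genes. The Fto signal was 9207, 9394 and 9331 in the knockouts and 11511, 11190 and 10590 in the wild types. The groups did not overlap, and the difference was -0.25 (SE 0.05) and -0.29 (SE 0.04). Rpgrip1l, of the ciliary transition zone, had 0.25 (SE 0.14) and 0.41 (SE 0.05) on its brightest probe. Its 4 tested probes ran from -0.11 to 0.41 without wild-type replicate 3. Rbl2, the p130 pocket protein of the cell cycle, had 0.29 (SE 0.19) and 0.51 (SE 0.05). Aktip had 0.06 (SE 0.07) and 0.11 (SE 0.06) and was not called. The chromatin remodeller Chd9 had -0.07 (SE 0.14) and, with the sign turned, 0.07 (SE 0.10) on its brightest probe, not called. The 4 tested Chd9 probes ran from 0.07 to 0.39 without wild-type replicate 3. At the end of the stretch the long noncoding RNA Crnde read 4083, 3904 and 3912 in the knockouts and 2190, 2294 and 3850 in the wild types, with differences of 0.56 (SE 0.22) and 0.82 (SE 0.05).

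The chaperone and sperm signalling genes of the interval, each on its brightest probe, were called in neither fit. Clgn read 82078, 95043 and 90915 in the knockouts and 86525, 87462 and 79450 in the wild types, which overlapped, with differences of 0.08 (SE 0.07) and 0.04 (SE 0.07). Calr, the calreticulin gene, differed by 0.02 (SE 0.04) and -0.01 (SE 0.04), and Man2b1, a lysosomal mannosidase, by -0.20 (SE 0.05) and -0.24 (SE 0.05). Prkaca differed by -0.08 (SE 0.07) and -0.15 (SE 0.04), and the adenylyl cyclase gene Adcy7 by -0.01 (SE 0.05) and -0.03 (SE 0.05). The heat shock chaperone genes Dnajb1 and Dnaja2 had -0.03 (SE 0.06) and 0.01 (SE 0.05) on 6 arrays, and -0.08 (SE 0.04) and -0.01 (SE 0.05) without wild-type replicate 3. The other Dnajb1 probe read 32004, 32748 and 32485 in the knockouts and 26170, 26309 and 30712 in the wild types, which did not overlap. Its differences, 0.23 (SE 0.07) on 6 arrays and 0.30 (SE 0.04) without that array, had the opposite sign. Syce2 read 61868, 64924 and 63159 in the knockouts and 69070, 71763 and 60770 in the wild types, so wild-type replicate 3 was the lowest array. Its difference was -0.08 (SE 0.07) on 6 arrays and -0.15 (SE 0.04) without wild-type replicate 3, called in neither.

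The 6 tested genes of metabolism, in mitochondria, peroxisomes and elsewhere in the cell, were called in neither fit. Their median difference was -0.06 on 6 arrays and -0.05 without wild-type replicate 3. They were Ndufb7 of respiratory complex I, the alanine aminotransferase Gpt2, the glutaryl-CoA dehydrogenase Gcdh, the peroxisomal protease Lonp2, the phosphorylase kinase subunit Phkb and the fatty acid elongation enzyme Tecr. Phkb had -0.05 (SE 0.05) and -0.01 (SE 0.04) on its brightest probe. A dimmer Phkb probe had 0.20 (SE 0.11) and 0.33 (SE 0.05), and another 0.10 (SE 0.06) and 0.15 (SE 0.05). Of the genes listed with innate signalling, not all of which act in it, Nod2 was too dim, and Cyld, Nkd1, Snx20 and Brd7 were not called in either fit. Cyld had 0.01 (SE 0.06) and 0.07 (SE 0.05), Nkd1 0.11 (SE 0.13) and 0.25 (SE 0.07), and Snx20 -0.31 (SE 0.13) and -0.36 (SE 0.16). Cyld removes ubiquitin chains, Nkd1 restrains Wnt signals and Snx20 is a sorting nexin.

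Further genes called without wild-type replicate 3 were taken up after their values were seen. Heatr3 read 209, 192 and 191 in the knockouts and 120, 93.3 and 178 in the wild types, and differed by 0.65 (SE 0.23) on 6 arrays and 0.90 (SE 0.12) without that array. The RNA helicase gene Ddx39a had 0.31 (SE 0.12) and 0.45 (SE 0.04), and the methionine salvage enzyme Mri1 had 0.34 (SE 0.14) and 0.51 (SE 0.05). Mgat4d had -0.33 (SE 0.14) and -0.50 (SE 0.04), Zswim4 -0.44 (SE 0.18) and -0.64 (SE 0.08), and N4bp1 -0.33 (SE 0.14) and -0.49 (SE 0.05). In each of these 6 genes wild-type replicate 3 lay between 83.3% and 100.2% of the way to the knockout mean. D830024N08Rik, Fbxw9 and Rbl2 were the 3 genes in which it lay beyond 125%.

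The dim end of the interval gave differences that rest on few readings above background. Mylk3, a myosin light chain kinase of heart muscle, read 17.8, 38.5 and 13.8 in the knockouts, of which 1 was well above background, and 85.5, 113 and 56.2 in the wild types. Its differences of -1.95 (SE 0.44) and -2.22 (SE 0.47) were not called, and with normexp background correction the first was -0.70. Rnf150 read 51.7, 61.1 and 58.9 in the knockouts and 11.8, 47.0 and 57.0 in the wild types, of which 2 were well above background, with differences of 0.85 (SE 0.59) and 1.28 (SE 0.59), not called. Rnf150 differed by 0.14 without wild-type replicate 1 and by 0.22 with normexp. Ptger1 entered only when wild-type replicate 3 was left out. It was well above background on 0 knockout arrays. Against the lowest signal well above background on those arrays, it was at least 1.99-fold higher in wild-type replicates 1 and 2. The calcium channel gene Cacna1a read 89.4, 81.3 and 59.7 in the knockouts and 84.1, 100 and 132 in the wild types, which overlapped, with differences of -0.45 (SE 0.21) and -0.28 (SE 0.20), not called.

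The genotypes were also compared within each slide. On slide 1 the 2 knockouts were compared with wild-type replicates 1 and 2, and on slide 2 knockout replicate 3 with wild-type replicate 3. Klf1 differed by -5.91 on the first slide and -0.46 on the other, and Misp3 by 2.44 and -0.01. Gm2716 had 1.27 and 0.02, and Tnpo2 -1.12 and 0.12. Gipc1 had 0.55 and 0.50, the brighter Zfp423 probe -0.72 and -0.72, and Irx5 -0.29 and -0.39. The other Zfp423 probe had -2.44 and -0.19. The plot of the difference on each slide shows the brightest probe of each gene. It places Misp3, Gm2716 and Tnpo2 near the horizontal line at 0, and Gipc1, Zfp423 and Irx5 near the diagonal. Each slide 2 value is 1 mouse against 1 mouse and has no replicate check. Knockout replicate 3, on the same slide, read Klf1 at 61.0 and Misp3 at 10340, inside the range of knockouts 1 and 2 for both.

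**Figure D3:**
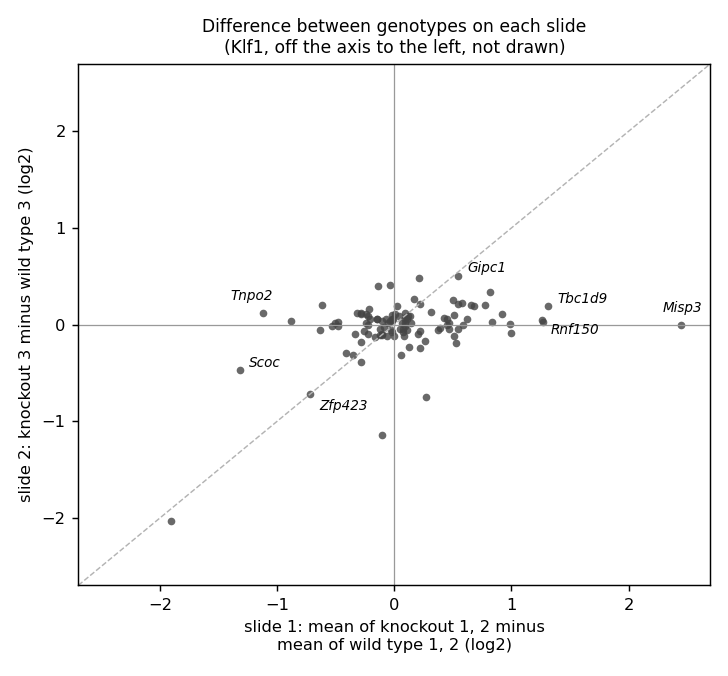
Each point is a tested gene of the interval, with its knockout minus wild-type log2 difference on slide 1 (2 mice per genotype, x axis) and on slide 2 (1 mouse per genotype, y axis). Each gene is shown on its brightest probe. Misp3, Tbc1d9 and Tnpo2 lie near 0 on the y axis, Gipc1 and this probe of Zfp423 near the dashed line of equal differences, and Klf1 (-5.91, -0.46) is off the axis.

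Along the interval the calls without wild-type replicate 3 varied from Mb to Mb. The share called in that fit was 32.7% over the interval and 2.26% over all genes. From 85 to 86 Mb 4 of 7 tested genes were called, from 86 to 87 Mb 10 of 28, and from 87 to 88 Mb 12 of 35. From 88 to 89 Mb 1 of 5 was called, from 89 to 90 Mb 2 of 6 and from 90 to 91 Mb 3 of 11. Between 91 and 93 Mb 0 of 5 and 0 of 1 were called, and from 93 to 95 Mb 2 of 6 in each Mb. Higher and lower calls stood side by side, with 6 and 4 from 86 to 87 Mb and 7 and 5 from 87 to 88 Mb.

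Set in bins of 5 Mb, the bin from 85 to 90 Mb had 29 of 81 tested genes called without wild-type replicate 3 (35.8%). This was the highest share of the 464 bins of the genome with at least 10 tested genes. The bin from 90 to 95 Mb had 7 of 29 (24.1%) and ranked 3, below a bin of chromosome 2 from 115 to 120 Mb. On 6 arrays the shares of the interval's bins were 2.5% and 3.45%. Over all genes the share was 2.46% on 6 arrays and 2.26% without wild-type replicate 3. The interval was chosen for this pattern, so the ranks describe it and test nothing. Beyond its edges, 2 of 10 genes were called from 65 to 70 Mb (20%, rank 4), 14 of 113 from 70 to 75 Mb (12.4%), 1 of 17 from 75 to 80 Mb, 1 of 27 from 80 to 85 Mb, and 6 of 57 from 95 to 100 Mb (10.5%). The level of wild-type replicate 3 was nearer to the knockouts in 77.5% and 69% of genes in the interval's bins, in 80% from 65 to 70 Mb, 64.3% from 70 to 75 Mb, 70.6% from 75 to 80 Mb, 59.3% from 80 to 85 Mb and 43.6% from 95 to 100 Mb.

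**Figure D4:**
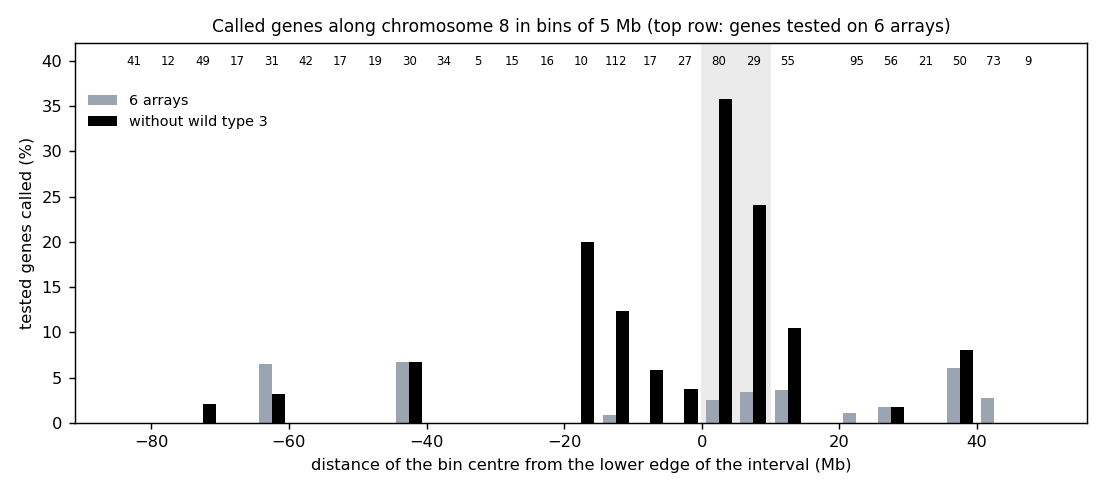
Share of tested genes called between genotypes in bins of 5 Mb along chromosome 8, with 6 arrays in grey and without wild-type replicate 3 in black, against the distance of the bin from the lower edge of the interval, which is shaded. The interval's bins reach 35.8% and 24.1% without that array and 2.5% and 3.45% with it.

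The genes nearest to the lower edge were Zfp330 inside and Il15 and Inpp4b outside. Just inside the lower edge, Zfp330 read 7306, 6916 and 6505 in the knockouts and 4188, 4728 and 5698 in the wild types, with differences of 0.51 (SE 0.12) and 0.63 (SE 0.08). Its other probe had 0.17 (SE 0.11) and 0.28 (SE 0.09). Just outside it, Il15, the gene of interleukin 15, had 0.15 (SE 0.13) and 0.06 (SE 0.13), and the phosphatase gene Inpp4b had -0.58 (SE 0.29) and -0.83 (SE 0.26). At the upper edge the last genes inside were Crnde and Irx5. The first outside were the matrix metalloprotease gene Mmp2, with -1.94 (SE 0.63) and -1.97 (SE 0.77) and a signal well above background in 2 of 3 knockouts, and Capns2, with -0.34 (SE 0.23) and -0.62 (SE 0.06). Capns2 read 200, 201 and 202 in the knockouts and 294, 326 and 173 in the wild types.

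Probes of the same gene gave unequal differences. Counted singly, 2 of 170 tested probes were called on 6 arrays (1.18% against 1.04% of all probes) and 45 of 171 without wild-type replicate 3 (26.3% against 1.23%). Among the 170 probes tested on 6 arrays, 45 genes had at least 2 probes. Their highest and lowest log2 differences without wild-type replicate 3 lay a median distance of 0.29 apart. The distance was at least 0.5 in 15 genes, and the sign differed in 16, in 3 of them with both values past 0.25.

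The widest gap was that of Zfp423. Its brighter probe is described above, and the other read 52.0, 47.8 and 53.7 in the knockouts and 278, 264 and 61.1 in the wild types, with differences of -1.69 (SE 0.58) and -2.41 (SE 0.07). Wild-type replicate 3 therefore lay with the wild types on 1 probe of Zfp423 and close to the knockouts on the other. The Rbl2 probes ran in opposite directions. The brighter probe read 23633, 24958 and 23580 in the knockouts and 17514, 16268 and 26914 in the wild types, and the other 689, 656 and 663 against 1106, 1222 and 558. Without wild-type replicate 3 their differences were 0.51 (SE 0.06) and -0.80 (SE 0.06), and wild-type replicate 3 was beyond the knockouts on both.

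Farsa, a subunit of phenylalanyl-tRNA synthetase, had 4 probes that all read lower in the knockouts without wild-type replicate 3, by differences of -0.28 to -1.04. The brightest of them, which stands for the gene, had the least. Trmt1, a tRNA methyltransferase, had 0.13 (SE 0.05) on its brightest probe and 0.92 (SE 0.05) on the other, which read 848, 862 and 810 in the knockouts and 430, 461 and 789 in the wild types. The probes of Fto gave -0.29, 0.29 and 0.18, and those of Nkd1 0.25 and -0.31. A direction for Rbl2, Fto or Nkd1 thus holds for a probe and not for the gene.

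**Figure D5:**
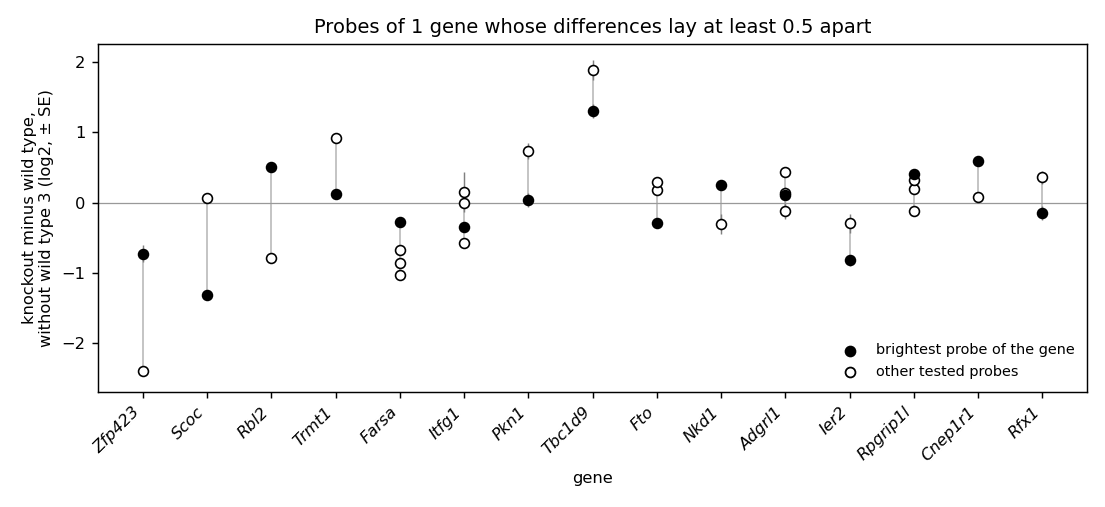
Knockout minus wild-type log2 difference without wild-type replicate 3 (± SE) for the probes of the 15 genes whose tested probes lay at least 0.5 apart. Filled points are the brightest probe of the gene and open points its other probes; the pairs of Rbl2, Fto and Nkd1 lie on both sides of 0.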

How the data were processed

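Total RNA of 6 testes (3 mice per genotype) was amplified, labelled and hybridised to one-colour arrays, per the labels' protocols. The authors deposited 1 scanner file per array, whose processed signal is a background-subtracted intensity. Per the file headers, the scanner software was Agilent Feature Extraction 10.7.3.1, given as 10.7 in the submitters' processing notes. They also deposited a table of log2 values, which correlated with the log2 processed signal of the same array at r of at least 0.9999 and had a median of 7.73 in every column. Its normalization is not given in the sources used here and it served as an alternative.

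Processed signals were taken to log2, each array's 75th percentile was subtracted, flagged spots were left out and spots of a probe averaged. limma 3.58.1 in R 4.3.3 fitted genotype on the brightest probe of each gene, with Benjamini-Hochberg adjustment over all tested genes and a call at adjusted p under 0.05. The script was tested on simulated data. Probe names were taken from RefSeq (GRCm38.p6 names) by accession for 27668 probes, by symbol for 5589 and by synonym for 471, and 7446 kept the file's name. The number of arrays limits the precision. Sequences are those of the deposited files.

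The members, gene lists and tests were chosen with earlier results of these data known. Genes named were those called on 6 arrays, the 8 largest rises and 8 largest falls among genes with a symbol matched in RefSeq (clone names such as AK029243 and F830004M19Rik were passed over), the interval's members of the lists, the probes at the edges and Prss37. Some genes that this rule names are not reported here.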

Additional observations from a re-analysis of the deposited data

How the results depend on the processing

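On 6 arrays the interval had 1 gene called higher and 2 lower. Without a filter on dim probes it had 0 and 0. Limma with a variance trend and robust fitting gave 3 and 6, and array weights 7 and 6. Taking the slide for a block gave 1 and 0, averaging the probes of a gene 1 and 0, and counting each probe alone 1 and 1. An adjusted p under 0.1 gave 6 and 6, and probes well above background in both groups 1 and 4. With the replicate block there were 0 and 0. Correlations of the deviations of same-numbered replicates across genes were -0.03, -0.03 and 0.16 for replicates 1, 2 and 3, so the numbers were not taken to pair the samples. Knockout and wild-type replicates 3 share a slide, and the 4 pairs from different slides had -0.14 to -0.06. With 1 array left out the counts ranged from 0 to 22 higher and from 0 to 14 lower, the upper values without wild-type replicate 3. Slide 1 alone, an alternative chosen after seeing the data, gave 3 and 3. An upper edge at 100 Mb gave 3 higher, 85 to 90 Mb alone 1 lower, and 90 to 95 Mb alone 0 higher and 1 lower, where other genes were counted. The share of all tested genes called, 2.46%, was 0.0293% without the filter, 1.45% for averaged probes, 1.04% for single probes, 6.69% under the trend and robust fit, 7.99% under array weights, 0.416% under the slide block, 0.0105% under the replicate block and 0.14% on slide 1 alone. It was 9.83% at adjusted p under 0.1, and with 1 array left out it ran from 0.0105% to 4.09%. Normexp, other scalings, the authors' log2 table and keeping flagged spots left these counts within 1.5 times, and 2 or 3 of the 3 called genes kept their call. Among 1058 values of the 53 named genes under the alternatives, 1010 kept their call and direction or lay close to the reported value, 28 lost a call and 20 moved. The sign was opposite in 36 values, all of genes not called on 6 arrays. The cause of these changes was not tested. Dim probes have the least precision: the lowest signal well above background was 29.6 to 35.3 on the 6 arrays.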
